A study of Populus davidiana with 6 samples.

Results

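Compact genes of the aspen leaf were taken here as annotated loci with a single transcript and a span of at least 300 and under 1000 bases. Of 40537 loci in the deposited tables, 7146 met this definition by identifier, transcript number and span, and no FPKM value was used. Transcript number may still depend on expression, as the deposited data also hold newly assembled transcripts. A locus with such a transcript beside its annotated one was left out, and the effect on the levels below was not tested. Of the 7146, 1206 (16.9%) averaged 1 FPKM or more across the 6 samples and are the compact loci described below. FPKM, the deposited unit, counts sequenced fragments relative to transcript length and to library size. Annotated single-transcript loci of 1000 bases or more numbered 12074, of which 3450 (28.6%) reached the same mean, and these longer loci are given alongside.

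In plants, many short genes have few or no introns and encode small proteins, among them small ribosomal proteins, small secreted peptides, lipid-binding proteins and small stress proteins. Short gene models also include many predictions with little transcript evidence. A level relative to length rests on fewer fragments at a short transcript than at a long one, so a few fragments can give a high value. The deposited tables give 0 gene names and do not pair locus identifiers with products, so no role is assigned to any locus here, and 4 loci are named by identifier and the others by position. The genome build of the coordinates and the source of the annotation were not stated. Spans, gaps and overlaps are therefore those of that reference and may differ in the sequenced plants. Whether each gene model is present in these plants is not known, which also limits the reading of a listed 0. The span is the distance from start to end of the locus, introns included.

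All samples were leaves of Populus davidiana Palgong1, an aspen cultivar described in the labels as drought sensitive. Plants were propagated from internodes in sterile culture, on medium with sucrose and the auxin naphthalene acetic acid, and were about 6 weeks old. The 3 air-dried samples came from plants taken out of the medium, rinsed with sterile water and then air-dried for about 10 min as the drought stress. The 3 control samples came from plants without this treatment, whose handling is not described. Separate plants or cultures for the samples of a group are not stated, so the p-values rest on a spread that may be technical. Leaf identity was not checked against marker genes, as the loci have no names.

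One library stood apart at the compact loci. Control replicate 1 was listed at 0 FPKM for 195 of the 1206 loci (16.2%), against 25 to 42 loci in each of the other 5 samples, and 145 loci were at 0 in control replicate 1 alone. It was also the highest of the 6 samples at 386 loci (32.0%), and at 96 of them by more than 2-fold. Across compact loci its log2(FPKM + 1) values had a Pearson correlation of 0.754 to 0.832 with the other samples, against 0.863 to 0.963 among those samples. At the longer loci the same ranges were 0.907 to 0.953 and 0.941 to 0.991, and control replicate 1 was at 0 for 2.14% of loci. These correlations run across loci, which are no independent replicates. An exact 0 in such files can be a failed estimate, so it is described only as listed at 0. Values without control replicate 1 are therefore given beside the counts, the shares by span and level, and the largest changes. Fragment totals were not found in the files or labels, so the depth behind each value is unknown.

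Most compact gene models had listed values of 0 or below 1 FPKM in leaves. Of the 7146, 4462 (62.4%) were listed at 0 in all 6 samples and 1478 (20.7%) had values above 0 with a mean under 1 FPKM. At the longer loci these shares were 36.5% and 35.0%. The share of models with a mean of at least 1 FPKM was 10.6% at spans of 300 to under 400 bases and 22.9% at 900 to under 1000 bases, and it was 25.3% and 32.8% at 1000 to under 2000 and 2000 to under 5000 bases. Among the 5940 compact models below the minimum, the highest single value was 5.74 FPKM, and 21 (0.354%) were listed at 0 in every control and above 0 in every air-dried sample, against 11 (0.185%) with the opposite pattern. Over all loci below the minimum these shares were 0.305% and 0.169%. Compact models with a mean of at least 1 FPKM were found on all 19 chromosomes, from 10.8% of models on chromosome 12 to 23.9% on chromosome 9.

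The levels of the 1206 compact loci spanned from 1 to 5565 FPKM. Their median was 5.20 FPKM, against 7.13 FPKM at the longer loci and 12.9 FPKM over all 22835 loci at or above this minimum. Means of 1 to 2 FPKM were found at 266 loci, 2 to 5 FPKM at 329, 5 to 10 FPKM at 198, 10 to 100 FPKM at 344, 100 to 1000 FPKM at 60 and 1000 FPKM or more at 9. Both strands were represented, with 623 loci on the plus and 583 on the minus strand.

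The 8 most abundant compact loci did not pass the test between groups. The highest was a 793-base locus on the minus strand of chromosome 6 (25054879 to 25055671), with 8227, 7214 and 3615 FPKM in control replicates 1, 2 and 3 and 6845, 4011 and 3478 FPKM in air-dried replicates 1, 2 and 3. A 505-base locus on chromosome 10 (15106443 to 15106947), which overlaps 1 other locus, followed with 6066, 5218 and 2411 FPKM in the controls and 5807, 3051 and 2565 FPKM in the air-dried samples. At both loci control replicates 1 and 2 and air-dried replicate 1 were the high samples and the groups overlapped. Other abundant loci varied far less. A 956-base locus on chromosome 1 (47717991 to 47718946) had 1629, 1640 and 1676 FPKM in the controls and 1733, 1611 and 1834 FPKM in the air-dried samples. A 900-base locus on chromosome 11 (18759022 to 18759921) had 1031, 1149 and 1038 FPKM in the controls and 1075, 1076 and 1250 FPKM in the air-dried samples. The groups overlapped at both. Next to these, a 721-base locus on chromosome 4 (21677116 to 21677836) had 2304, 2182 and 2504 FPKM in the controls and 1795, 1974 and 1811 FPKM in the air-dried samples, so that every air-dried value lay below every control value, although it did not pass the test (log2 fold change -0.32, SE 0.17, limma adjusted p = 0.333). The other 3 of the 8 most abundant, on chromosomes 5, 8 and 1 with means of 2601, 1442 and 1256 FPKM, had log2 fold changes of -0.11, -0.17 and -0.14 and limma adjusted p from 0.520 to 0.826. Of all 69 compact loci averaging 100 FPKM or more, 25 had a highest value under 1.5 times the lowest over the 6 samples and 44 had one under 2 times. At 1000 FPKM or more 0 of 9 compact and 0 of 22 longer loci passed, so this was not particular to compact loci.

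Air-dried leaves were compared with controls to find compact genes whose leaf level differed after the drying of whole plants. Of the 1206 loci, 54 rose (4.48%) and 34 fell (2.82%) in air-dried leaves, 88 in all (7.3%). Over all 22835 tested loci 951 (4.16%) rose and 597 (2.61%) fell, 6.78% in all, so the compact share lay near the background. At the longer loci 289 of 3450 rose (8.38%) and 126 fell (3.65%), 12% in all. The difference between these shares was not tested. The test was limma on log2(FPKM + 1) over all tested loci, with calls at a Benjamini-Hochberg adjusted p under 0.05. In bulk leaves, fewer cells of a type and less RNA per cell cannot be told apart.

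Most called compact loci had changed by 2-fold or more. At least a 2-fold change on the log2(FPKM + 1) scale was found at 63 of the 88 called loci. That is 5.22% of the compact loci, against 2.29% over all tested loci and 5.71% of the longer loci, where 197 of 415 calls were as large. The median log2 fold change was 1.40 for compact rises (quartiles 0.99 and 2.36) and -1.19 for compact falls (quartiles -1.76 and -0.96), against 0.96 and -0.96 at the longer loci. The smallest called changes were 0.333 and -0.313 at compact and 0.318 and -0.308 at longer loci. The replicate spread was wider at compact loci (median control SD of 0.457 against 0.208 on the log2 scale), and its part in the medians was not tested. These medians cover only loci that passed, so they are no comparison of the size of change between the classes. Compact rises had a median level of 5.05 FPKM in the controls and 23.6 FPKM in the air-dried samples, and compact falls 18.8 and 4.09 FPKM. Sorting by direction alone tends to produce unequal starting levels of this kind. Over all 1206 compact loci the median log2 fold change was 0.01, as it was over all tested loci, and the groups did not overlap at 328 loci (27.2%), against 30.4% over all tested loci. The plot of change against level shows the called loci.

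**Figure D1:**
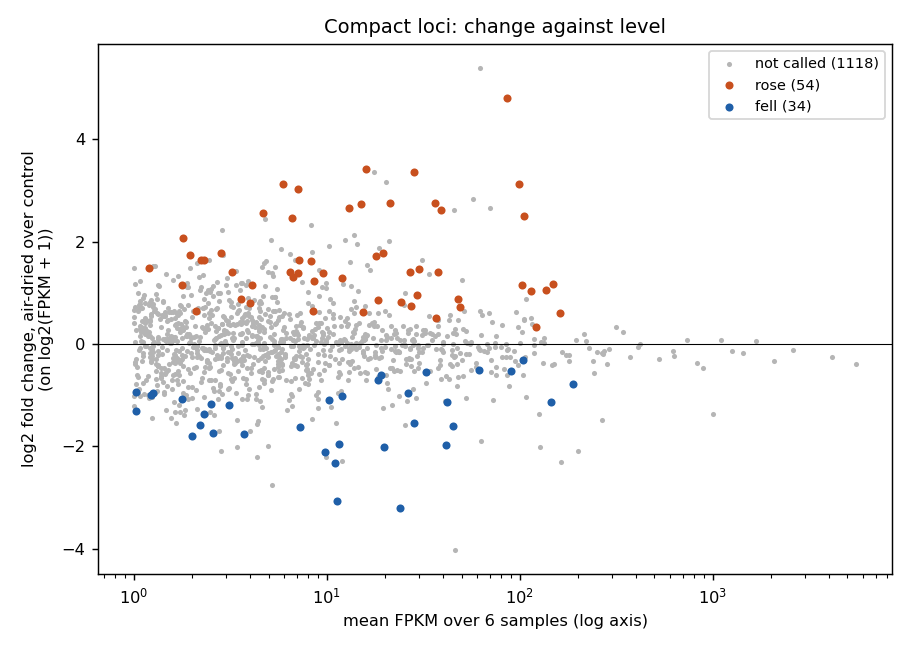
Log2 fold change of air-dried over control leaves, on log2(FPKM + 1), against mean FPKM over the 6 samples (log axis) for the 1206 compact loci; each point is a locus. The 54 rises and 34 falls lie across levels up to about 190 FPKM. At 1000 FPKM or more 0 of 9 compact loci passed the test, against 0 of 22 longer loci, which are not shown.

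Without control replicate 1, 98 compact loci passed (69 rose, 29 fell), among them 42 of the 54 rises and 23 of the 34 falls. That is 8.13%, against 7.61% over all tested loci. Without 1 air-dried sample far fewer passed, with 31, 21 and 27 called loci without replicates 1, 2 and 3. These are 2.57%, 1.74% and 2.24%, against 2.3%, 1.65% and 1.7% over all tested loci. Without control replicate 2, 50 passed (4.15%, against 2.77% over all tested loci).

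On the log2(FPKM + 1) scale, the largest called rise belonged to POPTR_0018s08320, a 597-base locus of chromosome 18, plus strand (9245946 to 9246542). It had 2.41, 7.5 and 5.74 FPKM in control replicates 1 to 3 and 231, 147 and 122 FPKM in air-dried replicates 1 to 3 (limma log2 fold change 4.8, SE 0.41, adjusted p = 0.00464). The lowest air-dried value was thus far above the highest control value, and the fold change without control replicate 1 was 4.42 (adjusted p = 0.00835). By ratio of means, 32.0 here, a 570-base locus on chromosome 17 (7582441 to 7583010) ranked higher at 51.5, listed at 0, 0 and 0.206 FPKM in the controls and at 4.11, 2.60 and 3.90 FPKM in the air-dried samples (limma log2 fold change 2.07, adjusted p = 0.00582). Its control values are too low for a firm ratio. POPTR_0013s14730, a 751-base locus of chromosome 13, plus strand (14860460 to 14861210), had 0.594, 2.94 and 2.81 FPKM in the controls and 30.2, 29.8 and 29.4 FPKM in the air-dried samples (limma log2 fold change 3.42, SE 0.37, adjusted p = 0.00854). Its air-dried samples were almost identical, and control replicate 1 was the lowest sample. Without it the fold change was 2.99 (adjusted p = 0.00165). The call ended without each of the air-dried samples, with an adjusted p of at most 0.0593 over its alternatives.

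The most abundant of the large rises was a 796-base locus of chromosome 1, plus strand (42026076 to 42026871). It had 16.4, 22.8 and 19.7 FPKM in the controls and 177, 161 and 196 FPKM in the air-dried samples, a mean of 19.6 ± 3.25 against 178 ± 17.4 FPKM (SD, n = 3 per group), by limma a log2 fold change of 3.12 (SE 0.14, adjusted p = 0.000769). The spread within each group was small beside this difference, and the call held under all 17 alternative settings. A 969-base locus on chromosome 7 (2018830 to 2019798) likewise held under all 17, with 4.02, 2.54 and 3.05 FPKM in the controls and 22.9, 27.9 and 29.6 FPKM in the air-dried samples (limma log2 fold change 2.73, adjusted p = 0.00195). Another 2 of the 12 largest rises lay on chromosome 7, at 3588722 to 3589445 with control values of 1.91 to 4.42 FPKM and air-dried values of 18.8 to 27.8 FPKM, and at 4124711 to 4125280 with 3.84 to 17.3 and 64.4 to 70.0 FPKM. Chromosome 18 also held 2 more, at 3092843 to 3093615 and 12757148 to 12758033. The call at 3588722 ended without air-dried replicate 2 (adjusted p = 0.0540), and that at 4124711 without control replicate 1 or 3 or any air-dried sample. The former of the chromosome 18 loci had 3.06 to 6.70 FPKM in the controls and 33.1 to 46.3 FPKM in the air-dried samples, and the latter 4.64 to 12.3 and 61.5 to 65.0 FPKM. The call for the latter ended without each air-dried sample, with an adjusted p of at most 0.0711 over its alternatives.

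Some compact genes were near silent in control leaves. An 849-base locus of chromosome 16, minus strand (12811596 to 12812444) was listed at 0 in control replicate 1, at 0.950 and 0.402 FPKM in control replicates 2 and 3, and had 13.4, 9.30 and 11.5 FPKM in the air-dried samples (limma log2 fold change 3.14, adjusted p = 0.00510). A 931-base locus on chromosome 6 (11398834 to 11399764) was listed at 0, 1.61 and 1.05 FPKM in the controls and at 13.8, 13.1 and 13.3 FPKM in the air-dried samples (limma log2 fold change 3.04, adjusted p = 0.0112). A 915-base locus on chromosome 5 (14484348 to 14485262) was listed at 0, 1.32 and 0.848 FPKM in the controls and at 8.38, 8.26 and 9.28 FPKM in the air-dried samples (limma log2 fold change 2.57, adjusted p = 0.0132). On chromosomes 6 and 5 the air-dried samples lay close together, while on chromosome 16 they ran from 9.30 to 13.4 FPKM. In all 3 control replicate 1 was the sample at 0. Without control replicate 1 all 3 still passed, with log2 fold changes of 2.89, 2.64 and 2.22. The calls on chromosomes 6 and 5 ended without each air-dried sample, with an adjusted p of at most 0.0778 and 0.0848 over their alternatives. Means under 1 FPKM in control and of at least 5 FPKM in air-dried leaves were found at 8 compact loci, these 3 and 5 that did not pass. The reverse pattern was found at 7 compact loci, of which limma called 0, with 4 at an unadjusted p under 0.05. Over all tested loci of 300 bases or more, 12 of 25 and 8 of 46 such loci passed, and at the longer loci 7 of 8 and 4 of 6. Some of the 5 uncalled compact loci rest on air-dried replicate 1 alone. Those at 12807211 on chromosome 10 and 14329558 on chromosome 15 had 38.5 and 83.3 FPKM there and 0 in every other sample. The locus at 17039671 on chromosome 14 had 70.4 FPKM there and at most 2.22 FPKM elsewhere. Of the 54 compact rises, 6 had control replicate 1 at 0, among them the 3 on chromosomes 16, 6 and 5. Without control replicate 1, the other such rise on chromosome 17 (7582441 to 7583010) still passed (limma adjusted p = 0.0154). Those on chromosome 2 at 142054 to 142946 and 11710165 to 11710950 did not (limma adjusted p of 0.0538 and 0.0556).

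Of the 12 largest rises the shortest locus had the widest control spread on the log2 scale. It spans 372 bases on chromosome 16 (3541109 to 3541480) and had 0.842, 5.59 and 9.91 FPKM in the controls and 56.0, 43.6 and 54.7 FPKM in the air-dried samples (limma log2 fold change 3.36, SE 0.66, adjusted p = 0.0466). The groups did not overlap, and the fold change was 2.62 without control replicate 1 (adjusted p = 0.0155), but the call ended without control replicate 2 or any air-dried sample. Among the 12 rises, 1 call ended without each of control replicates 1, 2 and 3 (adjusted p of 0.0720, 0.122 and 0.0597), and 6, 7 and 6 ended without air-dried replicates 1, 2 and 3 (adjusted p of 0.0512 to 0.171). Without control replicate 1 the log2 fold changes of the 12 rises ran from 2.22 to 4.42. The plot of the largest changes gives every sample.

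**Figure D2:**
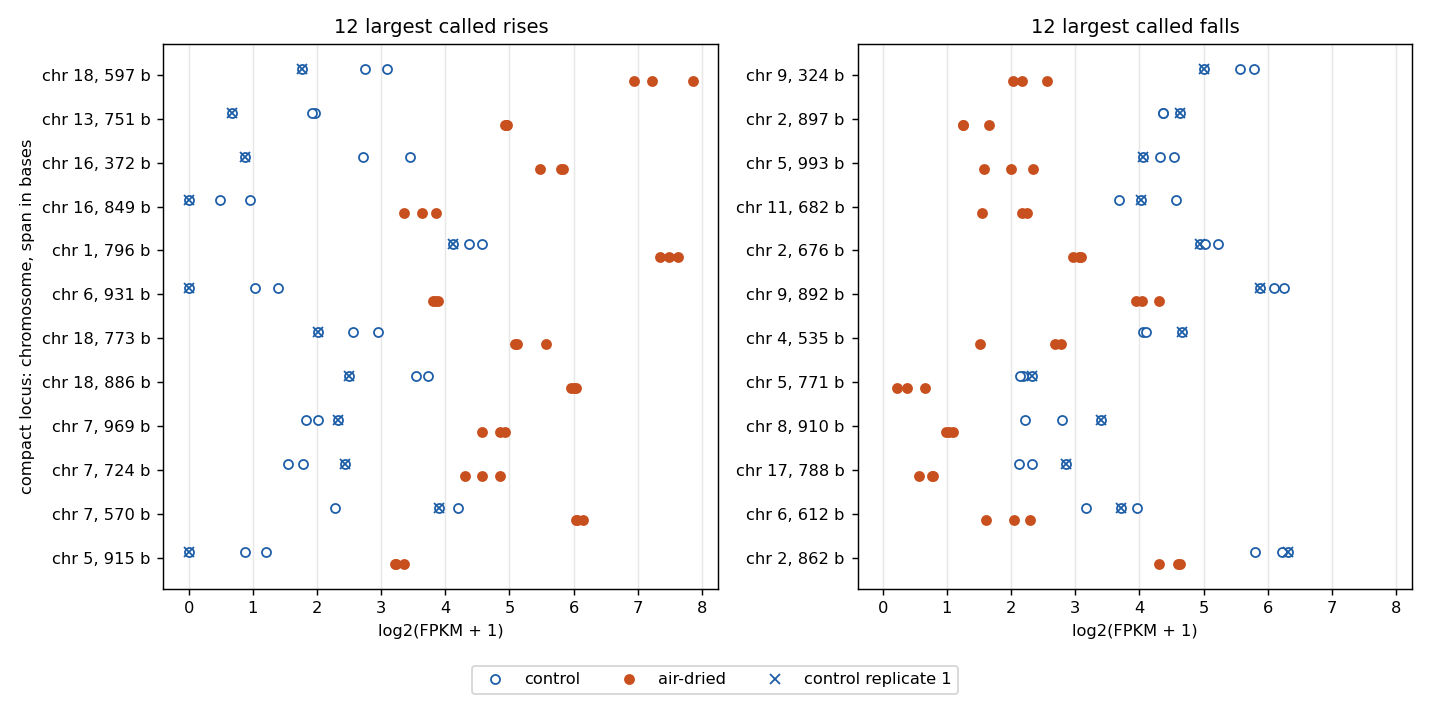
Log2(FPKM + 1) in each sample for the 12 largest called rises (left) and the 12 largest called falls (right) among compact loci, labelled by chromosome and span in bases. Open circles are control samples, crosses mark control replicate 1 and filled circles are air-dried samples. The groups do not overlap at any of the 24 loci. These loci were picked as called changes from the same values, so this is no further evidence. Over all tested loci the groups did not overlap at 30.4%. Control replicate 1 is at 0 for 3 of the rises.

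Among rises at higher levels, 7 of the 54 had a mean of at least 100 FPKM. A 363-base locus on chromosome 6 (23441022 to 23441384) had 23.9, 25.5 and 39.5 FPKM in the controls and 98.3, 209 and 232 FPKM in the air-dried samples (limma log2 fold change 2.50, adjusted p = 0.0235). Every air-dried value was above the controls, with air-dried replicate 1 the lowest of them. The call ended without control replicate 1 (log2 fold change 2.37, adjusted p = 0.0603). An 880-base locus on chromosome 5 (11467753 to 11468632) had 83.1, 66.3 and 75.7 FPKM in the controls and 150, 155 and 160 FPKM in the air-dried samples (limma log2 fold change 1.04, adjusted p = 0.00593). Here the spread within each group was narrow, and the call held in 16 of 17 alternatives. The smallest called rise, on chromosome 1 (23206490 to 23207356), was from 107, 105 and 111 FPKM to 140, 133 and 134 FPKM (limma log2 fold change 0.33, adjusted p = 0.0386), and it ended without control replicate 1 (adjusted p = 0.0509).

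Falls were led by the shortest of the 24 named changes. POPTR_0009s13440 spans 324 bases on the plus strand of chromosome 9 (10680678 to 10681001) and had 31.3, 54.4 and 46.5 FPKM in the controls and 3.08, 4.87 and 3.51 FPKM in the air-dried samples (limma log2 fold change -3.21, SE 0.25, adjusted p = 0.00326). The mean went from 44.1 ± 11.8 to 3.82 ± 0.93 FPKM (SD, n = 3 per group), a ratio of 11.5. POPTR_0002s20760, of 897 bases on the minus strand of chromosome 2 (16858075 to 16858971), had 23.7, 19.6 and 19.7 FPKM in the controls and 1.38, 1.37 and 2.16 FPKM in the air-dried samples (limma log2 fold change -3.07, SE 0.15, adjusted p = 0.00107), a ratio of means of 12.8. Both calls held under all 17 alternatives, and without control replicate 1 the fold changes were -3.43 and -2.98.

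Other falls came from moderately abundant loci with little spread. A 676-base locus on chromosome 2 (22447102 to 22447777) had 29.7, 31.5 and 36.2 FPKM in the controls and 7.33, 7.55 and 6.79 FPKM in the air-dried samples (limma log2 fold change -2.02, SE 0.10, adjusted p = 0.000864). An 892-base locus of chromosome 9, minus strand (3195489 to 3196380) had 58.0, 67.3 and 75.3 FPKM in the controls and 14.5, 15.5 and 18.7 FPKM in the air-dried samples (limma log2 fold change -1.98, adjusted p = 0.00261). An 862-base locus on chromosome 2 (12673815 to 12674676) had 78.2, 54.7 and 73.5 FPKM in the controls and 23.2, 18.8 and 23.9 FPKM in the air-dried samples (limma log2 fold change -1.59, adjusted p = 0.00787). In each the groups lay far apart, and these 3 calls held under all 17 alternatives. A 771-base locus on chromosome 5 (8152282 to 8153052) was low throughout, at 4.01, 3.57 and 3.38 FPKM in the controls and 0.293, 0.162 and 0.586 FPKM in the air-dried samples (limma log2 fold change -1.80, adjusted p = 0.00532). At such levels the added 1 FPKM understates the change, and the ratio of means was 10.5.

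The remaining 6 of the 12 largest falls lay on chromosomes 4, 5, 6, 8, 11 and 17, with control means of 4.53 to 18.9 FPKM, air-dried means of 0.632 to 4.37 FPKM and limma log2 fold changes of -2.33 to -1.63. Among the 12 falls, 2 calls ended without control replicate 1 (adjusted p of 0.0727 and 0.101), 4 without control replicate 2 (0.0558 to 0.123), 1 without control replicate 3 (0.108) and 5 each without air-dried replicates 1, 2 and 3 (0.0573 to 0.136). Without control replicate 1 the log2 fold changes of the 12 falls ran from -3.43 to -1.47. The locus on chromosome 17 (5806647 to 5807434) overlaps another locus on the same strand, so their reads may be shared.

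Called compact loci had called neighbours at about the background rate. Of the 54 rises, 8 (14.8%) had a called locus next to them among tested loci, 5 of them in the same direction, and of the 34 falls, 5 (14.7%) had one, 3 in the same direction. Over all tested loci 12.9% had one, and of the uncalled compact loci 12.3%. POPTR_0009s13440 lay 6203 bases from a locus on the same strand (10672995 to 10674474) that also fell, from a mean of 7.80 to 2.36 FPKM (limma log2 fold change -1.39, adjusted p = 0.00471). A 447-base locus on chromosome 18 (1329511 to 1329957) fell with 3.82, 3.80 and 3.85 FPKM in the controls and 1.77, 0.711 and 1.05 FPKM in the air-dried samples, 10471 bases from a locus that fell from 76.1 to 22.5 FPKM. The former overlaps a locus on the opposite strand, so its reads may be shared, and its call ended without control replicate 1 (adjusted p = 0.0587). An 800-base locus on chromosome 3 (14928871 to 14929670) rose from 11.6, 18.5 and 16.7 to 48.2, 43.3 and 41.1 FPKM, 12126 bases from a locus that rose from 39.8 to 326 FPKM. POPTR_0018s08320 went against its neighbour, which lay 43622 bases away and fell from 64.8 to 29.1 FPKM. There were 91 pairs of compact loci adjacent among tested loci, 58 of them on 1 strand, and both were called in 0 pairs. Overlap with any other locus was found at 169 of the 1206 compact loci (14%), 124 of them with a locus on the opposite strand, against 9.19% of the longer loci. As the library kit does not mark strand, reads in such overlaps cannot be told apart, and of the called compact loci 2 rises and 5 falls overlapped another locus.

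The spread between replicates was wide at compact loci and narrowed with span. The median SD of log2(FPKM + 1) between control replicates was 1.087 at spans of 300 to under 400 bases and 0.297 at 900 to under 1000 bases, and it was 0.181 at 2000 to under 5000 bases. Between air-dried replicates it was 0.584, 0.200 and 0.118 at the same spans. Without control replicate 1, the control value at 300 to under 400 bases was 0.612. It then rests on 2 samples, so it is not directly comparable with the air-dried value, which rests on 3. In each of the 6 level classes the median SD was larger at compact than at longer loci. At 10 to 100 FPKM, for example, it was 0.315 between controls and 0.207 between air-dried samples, against 0.161 and 0.103 at the longer loci.

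**Figure D3:**
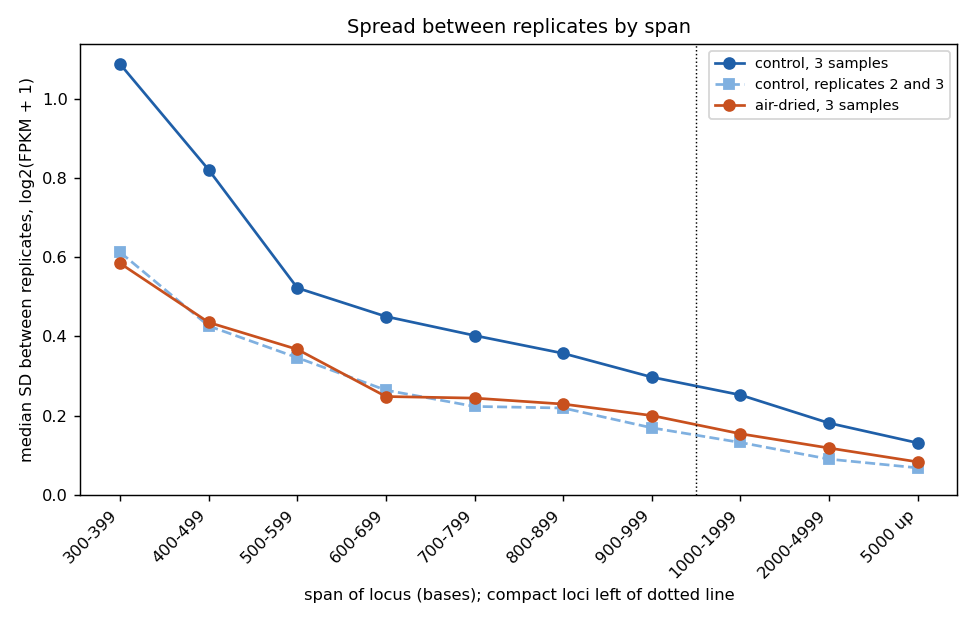
Median SD between replicates, on log2(FPKM + 1), by span of single-transcript annotated loci, for 3 control samples, control replicates 2 and 3 alone and 3 air-dried samples; compact loci lie left of the dotted line. The control line falls from 1.087 at 300 to under 400 bases to 0.297 at 900 to under 1000 bases. The line without control replicate 1 lies near the air-dried line but rests on 2 samples against 3, so they are not directly comparable.

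Called shares were lowest at the shortest spans. Of the 225 compact loci of 300 to under 500 bases, 3 rose and 5 fell (3.56%), and of the 981 loci of 500 to under 1000 bases, 51 rose and 29 fell (8.15%). By steps of 100 bases the called share ran from 2.70% at 300 to under 400 bases to 11% at 800 to under 900 bases. It was 13.5% at 1000 to under 2000 bases, 10.9% at 2000 to under 5000 bases and 6.60% at 5000 bases or more, where 106 loci were tested. The median control SD in these longer classes was 0.252, 0.181 and 0.131. Within level classes the compact share was below that of the longer loci at 1 to 2 FPKM (3.38% against 5.59%), 2 to 5 FPKM (4.86% against 8.58%), 5 to 10 FPKM (6.57% against 13.2%) and 10 to 100 FPKM (11.6% against 16.9%). At 100 to 1000 FPKM it was 16.7% against 15%, with 10 of 60 compact loci called. Without control replicate 1 this order turned, at 8.33% (5 of 60) against 15.7%, while in the lower classes the compact shares stayed below, at 5.26% against 9.03%, 5.78% against 11.5%, 9.60% against 14.3% and 11.9% against 17.9%. By span, the shares without it were 3.56% at 300 to under 500 bases, 9.17% at 500 to under 1000 bases and 15.7% at 1000 to under 2000 bases. These shares were not tested against each other, and the part of the replicate spread in them was not tested. Of the 109 loci within 50 bases below the upper span limit 7 were called (6.42%), and of the 83 within 50 bases above it 11 were called (13.3%). At the lower limit 1 of 58 loci in the first 50 bases above it was called, and 0 of 56 annotated single-transcript loci in the 50 bases below it. Among all 114 tested loci of this kind under 300 bases limma called 0, and 9 (7.89%) had an unadjusted p under 0.05. At the minimum of 1 FPKM, 40 compact models had a mean of 0.9 to 1 FPKM and were not tested, and 39 had a mean of 1 to 1.1 FPKM, of which 2 fell.

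**Figure D4:**
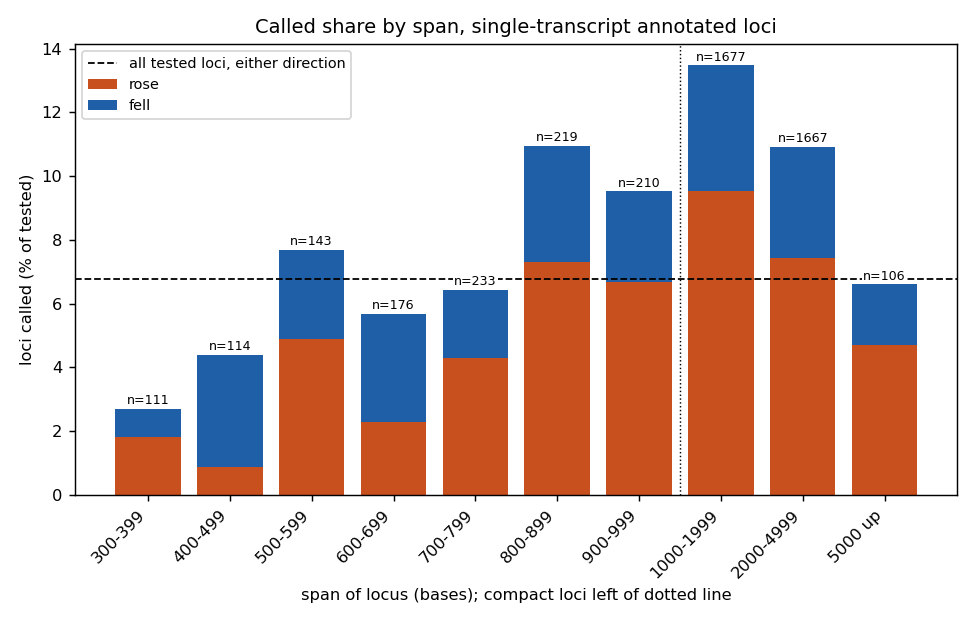
Percentage of tested single-transcript annotated loci called as risen or fallen in air-dried leaves, by span, with the number tested above each bar; the dashed line is the share over all tested loci, 6.78%. The bars run from 2.70% at 300 to under 400 bases to 11% at 800 to under 900 bases and 13.5% at 1000 to under 2000 bases.

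Samples also differed in level with span, and at the shortest spans this did not follow the groups. At spans of 300 to under 400 bases the median difference from a locus' mean on log2(FPKM + 1) was 0.48 in control replicate 2 and 0.44 in air-dried replicate 1, and -0.60 in control replicate 1, where 46.8% of these loci were listed at 0. In control replicate 3 and air-dried replicates 2 and 3 it was -0.20, -0.21 and -0.33. At 900 to under 1000 bases all 6 lay between -0.07 and 0.04. At 1000 to under 2000 bases the controls lay at -0.056 to -0.023 and the air-dried samples at 0.025 to 0.063. In each span class of longer loci every control lay below 0 and every air-dried sample above it. A 393-base locus on chromosome 18 (10593784 to 10594176) had 3870, 643 and 91.4 FPKM in the controls and 1222, 116 and 92.9 FPKM in the air-dried samples, with control replicates 1 and 2 and air-dried replicate 1 on top. The same 3 samples had the highest sums over annotated single-transcript loci under 300 bases, at 123500, 20630 and 50380 FPKM against 6939 to 10130 FPKM in the others. With a term for these 3 libraries in the fit, 92 compact loci passed (7.63%), among them 43 of the 54 rises and 24 of the 34 falls. Over all tested loci 1263 passed (5.53%), against 1548 without the term, and at the longer loci 331 (9.59%), against 415.

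**Figure D5:**
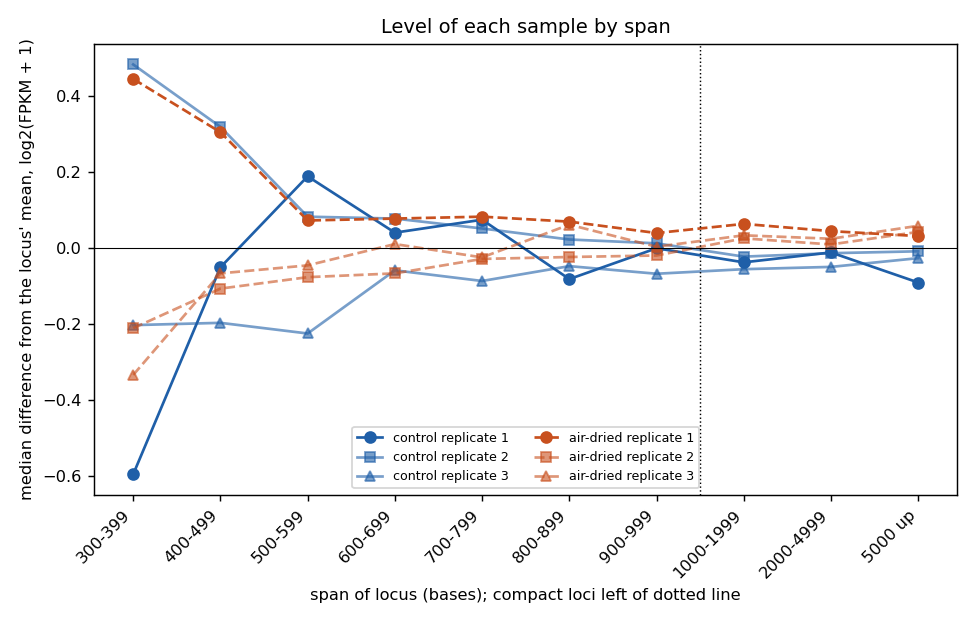
Median difference of each sample from the mean of a locus over the 6 samples, on log2(FPKM + 1), by span of single-transcript annotated loci; blue solid lines are control and orange dashed lines air-dried samples. At 300 to under 400 bases control replicate 2 and air-dried replicate 1 lie at 0.48 and 0.44 and control replicate 1 at -0.60, and at 900 to under 1000 bases all samples lie between -0.07 and 0.04.

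Some large fitted differences did not pass the test. At least a 4-fold difference on log2(FPKM + 1) was found at 24 of 1118 uncalled compact loci, against 6 of 3035 uncalled longer loci. Of the 24 compact loci, 13 were higher and 11 lower in air-dried leaves, and 14 spanned under 500 bases. The groups overlapped at 12 of the 24. The largest was a 316-base locus on chromosome 18 (5529609 to 5529924), listed at 0, 0 and 18.5 FPKM in the controls and at 173, 96.2 and 84.9 FPKM in the air-dried samples (log2 fold change 5.39, limma adjusted p = 0.0704). The groups did not overlap, and it is the largest fitted difference of all compact loci. A 546-base locus on chromosome 16 (206842 to 207387) was listed at 0, 6.35 and 3.20 FPKM in the controls and at 41.7, 27.4 and 26.4 FPKM in the air-dried samples (log2 fold change 3.36, limma adjusted p = 0.0648), and it passed without control replicate 1 (log2 fold change 2.53, adjusted p = 0.0273). At the opposite extreme, a 742-base locus on chromosome 18 (8853032 to 8853773) had 253, 21.5 and 0.784 FPKM in the controls and was listed at 0, 0 and 1.36 FPKM in the air-dried samples (log2 fold change -4.03, limma adjusted p = 0.271). Its control values differed among themselves as widely as the groups did.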

How the data were processed

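Leaf poly(A) RNA was sequenced as 100 bp read pairs from TruSeq libraries, which do not mark strand, per the labels' protocols. Each deposited file holds FPKM for every transcript, as the column names show (per the file headers). FastQC, TopHat and Cufflinks are named in the submitters' processing notes, while versions, settings, genome build and annotation were not given. Fragment totals are unknown, so no count test was used.

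All 6 files list the same 112919 transcripts. FPKM values were summed per locus. The 22835 loci averaging 1 FPKM or more were fitted together by limma 3.58.1 (R 4.3), using log2(FPKM + 1), a variance trend and group alone. Loci under a Benjamini-Hochberg adjusted p of 0.05 were called. On this scale the change of a weakly expressed locus is understated. The fit was tested on simulated data.

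The loci given singly are the 12 largest called rises and falls and the 8 most abundant compact loci. Loci cited for their ratio of means, for neighbours, for rises at higher levels, for sample levels and for large uncalled differences were picked with their values in view. The planned lists by product name could not be applied without gene names. The definition of compact loci and all lists and rules were chosen with earlier results of these data known.

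Alternatives covered the pseudocount, the low-value filter, scaling, the variance trend, sample weights, a replicate block, each sample left out, loci under 300 bases left out, a 2-fold minimum and other span limits. The library term, the lower span limit of 500 bases and the set without overlaps were added after the data were seen.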

Additional observations from a re-analysis of the deposited data

How the results depend on the processing

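The 88 called compact loci (7.3%) became 200 (16.6%) with sample weights and 13 (1.08%) with a replicate block. They became 44 with an upper span limit 200 bases lower, where only 777 loci were tested (5.66%). With 1 sample left out they ran from 21 to 98 (1.74% to 8.13%). Their count stayed within 1.5 times under the other settings, some of which also changed the number tested. It was 68 to 95 with other pseudocounts, filters, scaling or no variance trend. Of these, the minimum of 5 FPKM gave 68 of 611 (11.1%) and no filter 94 of 2684 (3.5%). It was 110 (9.12%) with loci under 300 bases left out of the fit and 63 (5.22%) with a 2-fold minimum. An upper span limit 200 bases higher gave 129 of 1559 (8.27%), and a lower limit of 500 bases 80 of 981 (8.15%). Without overlapping loci 81 of 1037 passed (7.81%), and with the library term 92 (7.63%). Over all loci, 1548 calls (6.78%) became 3371 (14.8%) with sample weights, 281 (1.23%) with the block and 523 (2.29%) with a 2-fold minimum. They ran from 376 to 1738 (1.65% to 7.61%) with 1 sample left out. At the longer loci, 415 became 762, 104 and 197 under the same settings and 127 to 481. For sample weights and the block the cause was not tested.

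Replicate numbers were not taken as pairs: same-numbered samples had correlations of 0.025, -0.065 and 0.050 in their deviations from the group means over all tested loci, and of 0.045, -0.121 and 0.221 over the compact loci. Of the 24 named changes, 16 did not pass with the block.

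Of the 88 called compact loci, 11 passed in the same direction under all 17 alternatives. Means under 5 FPKM were found at 13 of the rises and 12 of the falls. The alternative with a minimum of 5 FPKM left these out, so they could not pass under all 17. The median log2 fold change of compact loci, 0.01, stayed between -0.07 and 0.06. None of the 8 most abundant loci passed under any alternative. Under quantile normalization 6 of them changed sign, to log2 fold changes of 1.15, 1.23, 1.14, 0.56, 0.74 and 0.86. The loci at 15106443 on chromosome 10 and 9286545 on chromosome 1 were at 0.1303 and 0.0938 with the library term, and ran from -0.66 to 0.0091 and from -0.42 to 6e-04 with 1 sample left out, positive without control replicate 1. Depth is unknown, so no counting limits are given.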
